A study of Ovis aries with 8 samples.

Results

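The genes described here are 30 transcription factors that mark regions of the hypothalamus and of the brain around it, out of 33609 genes in a count table of sheep mediobasal hypothalamus. They were taken by symbol from a list of names. It holds 7 factors of the arcuate and ventromedial nuclei (NKX2-1, TBX3, NR5A1, ISL1, FEZF1, HMX2 and HMX3) and 23 of neighbouring or broader areas. All 30 had a row, 29 had enough reads to be tested, and LHX8 did not. RNA came from adult Ile-de-France ewes that were either food-restricted or fed ad lib (the well-fed group), 30 ewes per group in each of 2 years. For each group, RNA from 15 ewes at a time was mixed at random and in equal amounts into 4 pools. Each of the 8 pools was sequenced as 1 stranded mRNA library, and n below counts pools. The labels give neither the year of a pool nor the degree or length of the restriction, and a p-value here measures the spread between mixes of ewes.

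The mediobasal hypothalamus is the floor of the brain around the third ventricle. Its arcuate nucleus holds neurons that sense nutrient state and steer feeding, growth and reproduction, and the ventromedial nucleus beside it takes part in energy balance and sexual behaviour. During development, transcription factors divide this small territory into nuclei, and many of them stay active in adult neurons, where they keep the identity of a cell and its peptide. Because many of the factors are limited to certain areas, the set can help to describe which tissue a dissected block contained. Several are also made elsewhere, among them in pituitary cells, oligodendrocytes or GABA neurons of several areas. The level of a factor is therefore not a direct measure of tissue share. In bulk RNA a smaller number of cells of a type cannot be told apart from less RNA in each cell.

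Total counts lay between 36192025 and 48125991 per pool. Across all tested genes the first principal component held 34.7% of the variance of log2 CPM (counts scaled to a common library size, with TMM factors). It put food-restricted pools 1 and 2 and well-fed pools 3 and 4 on one side and the other 4 pools on the other. These are called the first and the second set of 4 pools below. Food-restricted pool 4 lay nearest to 0 on this component, at -9.23, and well-fed pool 4 was next, at 29.4. The sets were read from the data, each holds 2 pools of each feeding group, and the labels do not name them.

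None of the 29 tested factors passed the test for a difference between food-restricted and well-fed pools (edgeR quasi-likelihood, adjusted p = 1.00 for each). Over all 18193 genes tested, 0.0055% were called, which was 1 gene, AGRP. At an unadjusted p under 0.05 there were 0 of 29 factors, against 1.7% of all genes, and DESeq2 and limma voom called 0 factors as well. The pools of the 2 feeding groups did not overlap for 0 of 29 factors, against 1.6% of all genes. Of the factors 16 had a positive and 13 a negative log2 fold change (food-restricted minus well fed), with a median of 0.06 beside 0.01 over all genes. The median was 0.10 for the 7 arcuate and ventromedial factors and 0.03 for the 22 tested factors of other areas.

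**Figure D1:**
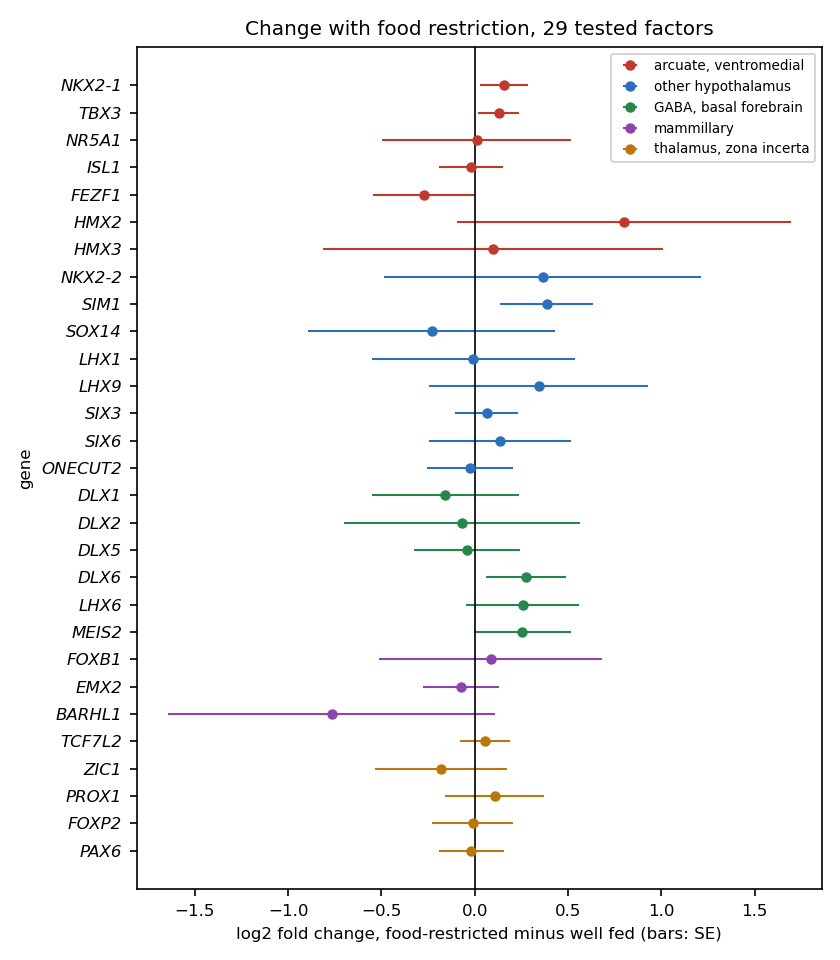
Log2 fold change of the 29 tested factors, food-restricted minus well fed, from the edgeR fit (x axis), 1 row per gene; points are estimates, bars their standard errors, and colours the area groups. Estimates run from -0.77 (BARHL1) to 0.80 (HMX2), and none passed the test. The widest bars belong to HMX3, HMX2 and BARHL1, which had few reads, and to NKX2-2, which varied widely between pools.

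Among the arcuate and ventromedial factors, NKX2-1 (gene ID 101121204) is required early to form the ventral hypothalamus. It stood at 55.0, 50.7, 48.3 and 40.0 CPM in food-restricted pools 1 to 4 and at 38.5, 43.4, 45.4 and 46.9 CPM in well-fed pools 1 to 4. The groups overlapped, with the 3 highest pools all food-restricted. The log2 fold change was 0.16 (SE 0.13), and its 95% interval reached from -0.13 to 0.44, or from 0.916-fold to 1.35-fold. TBX3 (gene ID 101110875), a T-box factor that maintains the identity of arcuate neurons, was at 137, 131, 150 and 141 CPM against 113, 143, 118 and 138 CPM. Its log2 fold change was 0.13 (SE 0.11, 95% interval -0.12 to 0.37). ISL1 (gene ID 541604), a LIM-homeodomain factor of arcuate peptide neurons, was at 47.0, 46.3, 74.3 and 55.9 CPM against 53.7, 67.8, 48.7 and 56.1 CPM (log2 fold change -0.02, SE 0.17, 95% interval -0.40 to 0.36). For these factors the highest pool was 1.43, 1.33 and 1.603 times the lowest, in that order. ISL1 is also expressed in the pituitary, whose hormone gene CGA was present in every pool at 827 to 1474 CPM. Of 10 pituitary markers 8 were tested and 0 passed, and these 8 summed to between 1189 and 1705 CPM in food-restricted and between 1035 and 1879 CPM in well-fed pools. Of the 8, 3 (PITX1, LHX3 and LHB) were higher in every pool of the first set, where 14.2% of all genes were. None was lower throughout it, against 8.93% of all genes. PITX1 was at 84.2, 115, 24.3 and 43.0 CPM against 18.5, 24.5, 112 and 117 CPM. POU1F1, which defines several pituitary cell types, had 0 to 12 counts per pool. The part of pituitary tissue in the ISL1 level was not tested.

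The ventromedial factors varied more from pool to pool. NR5A1 (gene ID 443464, steroidogenic factor 1), which defines the ventromedial nucleus in adult brain and is also made in pituitary gonadotropes, was at 2.41, 4.91, 2.40 and 1.68 CPM in food-restricted pools and at 1.16, 1.27, 4.19 and 4.70 CPM in well-fed pools. The means were 2.85 ± 1.41 and 2.83 ± 1.88 CPM (SD, n = 4 each), and the log2 fold change was 0.01 (SE 0.51). Well-fed pools 1 and 2 lay at the bottom of the 8 and well-fed pools 3 and 4 near the top, so that the spread within the well-fed group spanned nearly the whole range. The gonadotrope hormone gene LHB was also higher throughout the first set, at 50.5, 56.0, 21.0 and 33.1 CPM against 8.55, 17.4, 99.6 and 117 CPM. FSHB, the other gonadotrope hormone subunit in the list beside CGA, overlapped between the sets, at 19.2, 27.6, 13.9 and 25.3 CPM against 17.2, 21.0, 23.9 and 36.2 CPM, and so did CGA. The part of gonadotropes in the NR5A1 level was not tested. FEZF1 (gene ID 101123206), a zinc finger factor needed for ventromedial development, was at 7.24, 13.5, 6.95 and 11.2 CPM against 10.9, 7.36, 15.1 and 13.6 CPM. Its log2 fold change was -0.27 (SE 0.27), with food-restricted pool 2 and well-fed pools 3 and 4 again the highest.

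HMX2 and HMX3 are homeodomain factors, also known as Nkx5 genes, that act in the arcuate lineage which gives growth hormone-releasing hormone neurons. HMX2 (gene ID 101103109) had 54, 75, 14 and 9 counts against 5, 4, 35 and 40 counts, or 1.26, 1.80, 0.327 and 0.213 CPM against 0.110, 0.104, 0.730 and 1.13 CPM. Within the first set of pools both food-restricted values exceeded both well-fed values, and the same held within the second set. HMX2 was the 1 factor of 29 with this order, where 2.52% of all genes had it, and 0 of 29 had the reverse order, against 2.76% of all genes. The mean of the food-restricted pools was 1.65 times that of the well-fed pools in the first set and 2.53 times in the second. The log2 fold change over all pools was 0.80 (SE 0.89). With the set as a block it was 0.97 (SE 0.56) and did not pass (edgeR adjusted p = 0.991). HMX3 (gene ID 105606181) had 3, 34, 15 and 13 counts against 7, 1, 32 and 21 counts, and the log2 fold change was 0.10 (SE 0.91). Unlike HMX2 it was near its lowest in food-restricted pool 1.

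**Figure D2:**
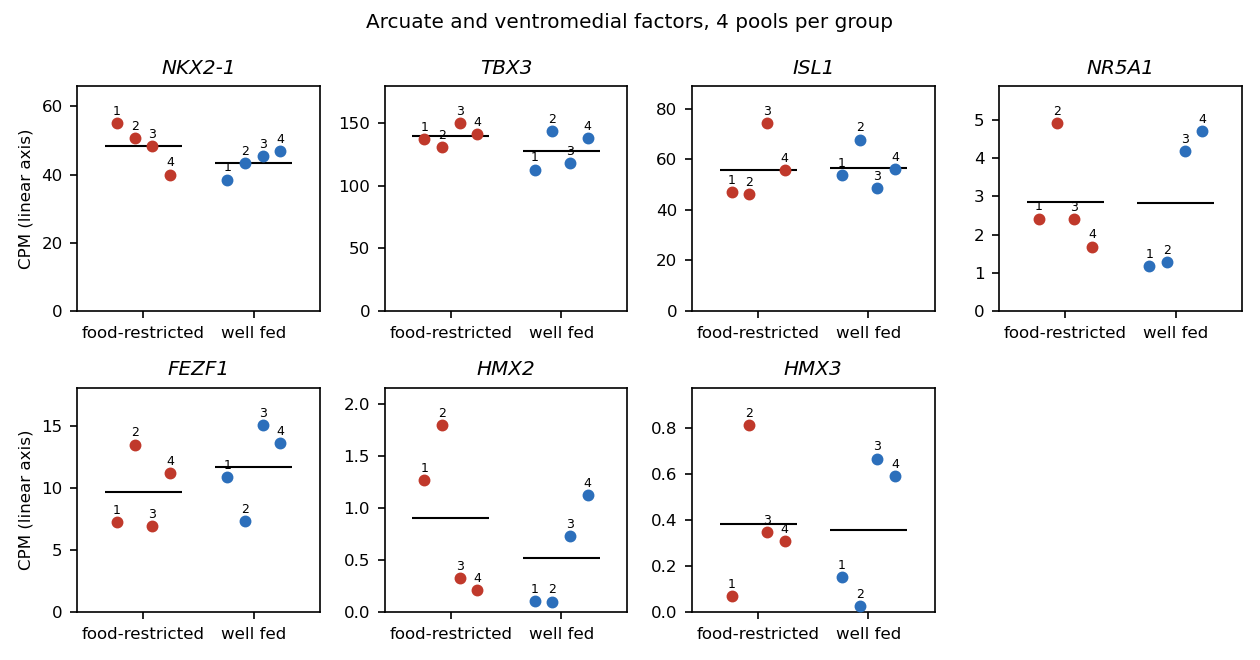
TMM-scaled CPM (linear y axes from 0) of the 7 arcuate and ventromedial factors in 4 food-restricted (red) and 4 well-fed (blue) pools; numbers are pool numbers and lines are group means. NKX2-1, TBX3 and ISL1 differ at most 1.603-fold between pools, while NR5A1 differs 4.22-fold and HMX2 17.3-fold, with both feeding groups on each side.

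Several factors of other hypothalamic nuclei also varied widely between pools. NKX2-2 (gene ID 554253), a homeodomain factor of the ventral neural tube that is also made in oligodendrocyte progenitors, was at 7.33, 8.79, 0.910 and 2.21 CPM in food-restricted pools and at 1.27, 0.364, 8.09 and 5.18 CPM in well-fed pools. The highest pool was 24.1 times the lowest, and all 4 pools of the first set lay above all 4 of the second. The means were 4.81 ± 3.84 and 3.73 ± 3.58 CPM (SD, n = 4 each). The log2 fold change was 0.36 (SE 0.85). Of 6 genes listed as markers of oligodendrocyte progenitors, 3 (CSPG4, OLIG1 and SOX10) were higher in every pool of the first set, as NKX2-2 was. Among all genes 14.2% had this order. OLIG1 was at 90.0, 98.0, 54.4 and 59.3 CPM in food-restricted and at 58.5, 53.0, 86.2 and 82.1 CPM in well-fed pools. The other markers did not share this order, and OLIG2 and VCAN overlapped between the sets. OLIG2 was at 1.499, 5.65, 0.980 and 2.18 CPM against 1.52, 0.494, 4.13 and 3.52 CPM, while PDGFRA was lower in every pool of the first set than in any of the second, at 51.5, 59.0, 62.4 and 61.3 CPM against 70.2, 71.0, 60.3 and 57.0 CPM. The 6 progenitor markers summed to between 216 and 285 CPM in food-restricted pools and between 205 and 259 CPM in well-fed pools, and none was at 0. Their part in the NKX2-2 level was not tested. Of 7 other oligodendrocyte markers, 2 (MBP and MAG) were also higher in every pool of the first set, against 14.2% of all genes. Lower throughout it were 0 of the 7, against 8.93% of all genes.

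SOX14 (gene ID 101112787), a factor of ventral tuberal and thalamic inhibitory neurons, was at 3.04, 12.7, 1.75 and 2.75 CPM against 2.197, 2.78, 10.8 and 7.94 CPM. Food-restricted pool 2 and well-fed pools 3 and 4 stood well above the rest, and the log2 fold change was -0.23 (SE 0.66). LHX1 (gene ID 101109722), which acts in the suprachiasmatic clock neurons and in the mammillary area, was at 4.45, 5.22, 1.03 and 1.57 CPM against 2.55, 1.51, 5.67 and 2.56 CPM, and the log2 fold change was -0.01 (SE 0.54). SIX6 (gene ID 100302061), a factor of the eye field, the suprachiasmatic nucleus and the pituitary, was at 11.9, 21.8, 7.75 and 10.7 CPM against 6.28, 8.03, 16.4 and 16.8 CPM (0.14, SE 0.38). All 3 genes were higher in every pool of the first set than in any pool of the second, though well-fed pools 4 and 1 were almost level for LHX1. SIX3, the relative of SIX6 that patterns the anterior forebrain, varied less, from 49.7 to 74.5 CPM in food-restricted and from 48.6 to 76.6 CPM in well-fed pools (log2 fold change 0.06, SE 0.17).

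SIM1 (gene ID 101123562), which specifies the neurons of the paraventricular and supraoptic nuclei, was highest in food-restricted pool 3. It was at 5.99, 5.15, 9.31 and 6.81 CPM against 7.21, 3.87, 5.09 and 4.67 CPM, and the log2 fold change was 0.39 (SE 0.25, 95% interval -0.17 to 0.94). LHX9 (gene ID 101101906), a factor of orexin neurons of the lateral hypothalamus, was also highest there, at 0.445, 0.694, 1.52 and 0.664 CPM against 0.417, 0.338, 1.31 and 0.535 CPM (0.34, SE 0.59). ONECUT2, a cut-homeodomain factor, ran from 5.22 to 10.01 CPM in food-restricted and from 6.24 to 8.26 CPM in well-fed pools, again with food-restricted pool 3 at the top (-0.02, SE 0.23).

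**Figure D3:**
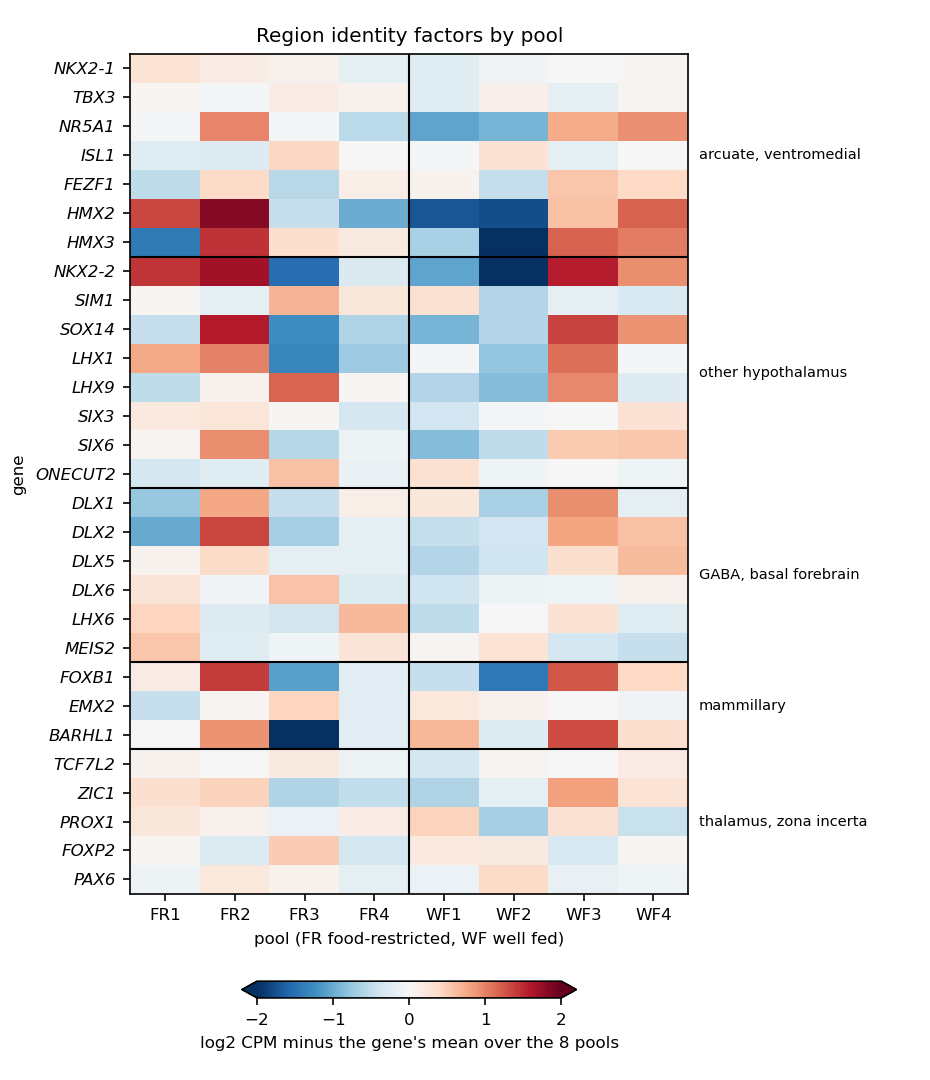
Log2 CPM of the 29 tested factors in each pool after subtracting the gene's mean over the 8 pools (colour, cut at -2 and 2), with genes as rows by area and pools as columns (FR food-restricted, WF well fed). NKX2-2, SOX14, FOXB1, NR5A1 and SIX6 are high in FR2, WF3 and WF4 in both feeding groups, while NKX2-1, TBX3, SIX3 and TCF7L2 stay near 0 in all pools.

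The distal-less factors DLX1, DLX2, DLX5 and DLX6 switch on genes of inhibitory GABA neurons in the forebrain and hypothalamus, and they lie in neighbouring pairs, DLX1 beside DLX2 and DLX5 beside DLX6, in the RefSeq gene table. DLX1 (gene ID 101113912) was at 3.18, 9.34, 3.92 and 5.93 CPM against 6.33, 3.43, 10.3 and 4.79 CPM, and DLX2 (gene ID 101106667) at 0.304, 1.72, 0.397 and 0.569 CPM against 0.461, 0.494, 1.17 and 1.01 CPM. Both were lowest in food-restricted pool 1 and among the highest in food-restricted pool 2 and well-fed pool 3. DLX5 (gene ID 101119298) was at 5.85, 7.18, 4.85 and 4.93 CPM against 3.69, 4.21, 6.96 and 8.64 CPM, with every pool of the first set above every pool of the second. Its neighbour DLX6 (gene ID 101115361) had another order, at 8.01, 6.39, 9.92 and 5.50 CPM against 5.05, 6.21, 6.32 and 7.10 CPM, highest in food-restricted pool 3. Log2 fold changes were -0.16 (SE 0.39) for DLX1, -0.07 (SE 0.63) for DLX2, -0.04 (SE 0.28) for DLX5 and 0.27 (SE 0.21) for DLX6.

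LHX6 (gene ID 101113740), a factor of zona incerta neurons and forebrain interneurons, was at 3.93, 2.42, 2.24 and 4.58 CPM against 2.04, 2.94, 3.59 and 2.45 CPM, and the log2 fold change was 0.26 (SE 0.30). In the RefSeq gene table it overlaps MORN5, which had 1382 counts over the 8 pools, and the strand setting of the counting is not known. MEIS2, a cofactor of homeodomain proteins abundant in striatal neurons, ran from 3.16 to 5.50 CPM against 2.70 to 4.50 CPM (0.26, SE 0.26). LHX8, the factor of cholinergic basal forebrain neurons, had 0, 7, 0 and 5 counts in food-restricted pools and 0, 0, 0 and 3 counts in well-fed pools. A count of 0 allows up to 3 counts, which are 0.0625 to 0.0780 CPM in the pools concerned, and no fold is given.

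For the mammillary bodies, which lie just behind the mediobasal block, FOXB1 (gene ID 101114446) is the defining forkhead factor. It was at 4.50, 10.6, 1.87 and 3.46 CPM against 2.92, 1.46, 9.57 and 5.29 CPM, which put the first set of pools above the second without overlap. The highest pool was 7.30 times the lowest, and the log2 fold change was 0.09 (SE 0.60). BARHL1 (gene ID 101119896), a homeodomain factor of the mammillary and subthalamic region, had 11, 22, 0 and 9 counts against 20, 8, 34 and 12 counts (-0.77, SE 0.88). EMX2, a factor of dorsal forebrain and caudal hypothalamus, ran from 6.51 to 12.2 CPM against 8.59 to 10.5 CPM (-0.07, SE 0.20) and was highest in food-restricted pool 3, where FOXB1 was at 1.87 CPM and BARHL1 at 0.

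The factors of thalamus and zona incerta differed less between pools. TCF7L2 (gene ID 101118068), the Wnt effector that defines thalamic neurons and is also made in maturing oligodendrocytes, was at 38.7, 36.6, 42.1 and 34.5 CPM against 29.05, 38.4, 37.2 and 41.3 CPM (0.06, SE 0.13, 95% interval -0.24 to 0.35). Its highest pool was 1.45 times its lowest. The 7 oligodendrocyte markers summed to between 3970 and 5476 CPM against 3852 and 5454 CPM, none was at 0, and their part in the TCF7L2 level was not tested. ZIC1 (gene ID 101104550), a zinc finger factor of septum and dorsal midline, was at 5.55, 6.08, 2.89 and 3.11 CPM against 2.90, 3.87, 7.84 and 5.35 CPM (-0.18, SE 0.35), with the first set above the second. FOXP2 (-0.01, SE 0.22), PROX1 (0.11, SE 0.27) and PAX6 (-0.02, SE 0.18), factors of thalamic, zona incerta and other diencephalic neurons, ran over all 8 pools from 6.78 to 12.4, from 2.86 to 6.17 and from 8.30 to 12.3 CPM. Their groups overlapped.

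Of the 29 factors, 9 were higher in every pool of the first set than in any of the second (NR5A1, HMX2, NKX2-2, SOX14, LHX1, SIX6, DLX5, FOXB1 and ZIC1), where 14.2% of all genes showed this order. None of the 29 was lower throughout the first set, where 8.93% of all genes were. The sets were defined on all genes, these included, so the counts describe the split and do not test it. The 9 factors belong to all 5 area groups, 2 of the 7 arcuate and ventromedial factors and 7 of the 22 others. NR5A1 was in this group by a small margin, with 2.41 CPM in food-restricted pool 1 and 2.40 CPM in food-restricted pool 3.

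Each set holds 2 pools of each feeding group, so a difference between the sets also widens the spread within feeding groups. The 2 are therefore not separate observations. The spread within feeding groups is given by edgeR as the biological coefficient of variation (BCV), the relative spread left after counting error is taken off. Its median was 30.1% over the 29 factors and 20.9% over all genes. Because this value depends on level, each factor was also set beside the genes within 0.5 log2 CPM of its own mean. There 8 factors lay in the most variable 10%: NKX2-2, SOX14, FOXB1, LHX1, SIX6, NR5A1, DLX1 and HMX2. For NKX2-2, with a BCV of 80.6%, 0.560% of the 1250 genes at its level varied as much, and for SOX14, with a BCV of 63.5%, 1.44%. NKX2-1 and TBX3, with BCVs of 15.6% and 13.97%, were less variable than most genes at their level, of which 70.5% and 75.0% varied as much.

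**Figure D4:**
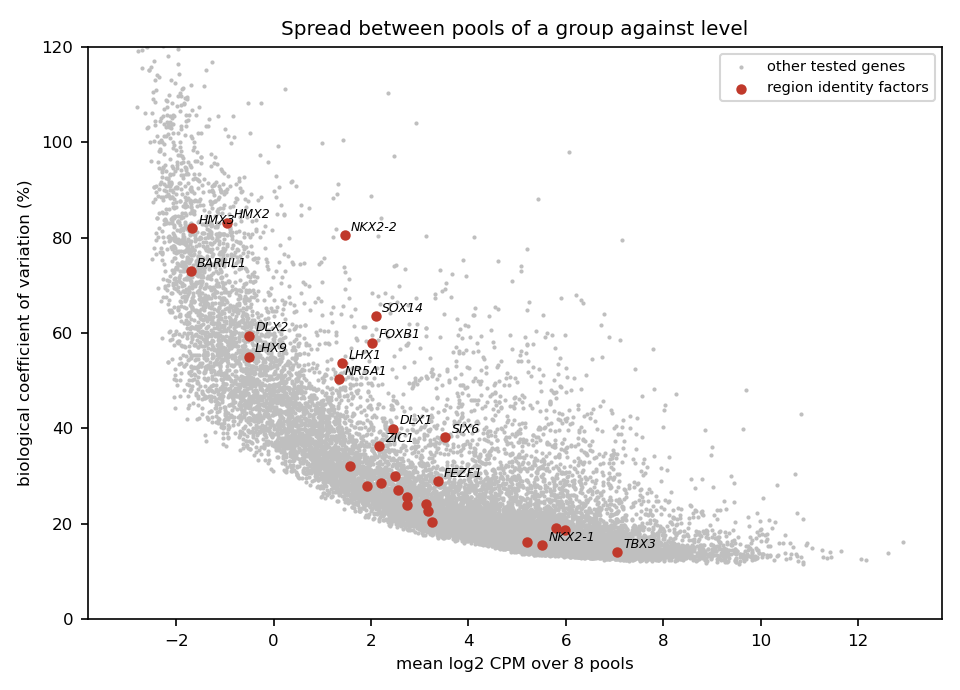
BCV within feeding groups (%) against mean log2 CPM over 8 pools, for the 29 factors (red) and the other tested genes (grey); 16 genes above 120% lie off the axis, and not every factor is named. NKX2-2, SOX14, FOXB1, LHX1 and NR5A1 stand above most genes of their level, while NKX2-1 and TBX3 lie low.

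To set arcuate and ventromedial factors against those of other areas, log2 CPM was centred on each gene's mean and averaged over each group in each pool. The factors of other areas include some of the tuberal or wider hypothalamus, such as SOX14 and the DLX genes. They do not mark only tissue outside the block. The arcuate and ventromedial mean was -0.08, 0.64, -0.01 and -0.19 in food-restricted pools 1 to 4 and -0.55, -0.71, 0.38 and 0.52 in well-fed pools 1 to 4. The mean of the other areas was 0.04, 0.45, -0.30 and -0.15 against -0.22, -0.42, 0.47 and 0.14. Both were above 0 in food-restricted pool 2 and in well-fed pools 3 and 4, and both below 0 in food-restricted pools 3 and 4 and in well-fed pools 1 and 2. The difference between them was -0.12, 0.20, 0.29 and -0.04 in food-restricted pools and -0.33, -0.29, -0.09 and 0.38 in well-fed pools. The feeding groups overlapped in this difference. Taken as a median over the genes, it was positive in food-restricted pool 4 (0.20), well-fed pool 1 (0.12) and well-fed pool 3 (0.24), so its sign in these 3 pools depends on how the genes are summarised. Genes with few counts also weighed on the means. In food-restricted pool 2, HMX2 and HMX3 lay furthest from 0 among the 7, at 1.83 and 1.45. They did so in well-fed pool 2 as well, at -1.77 and -2.10. BARHL1, with 0 counts in food-restricted pool 3, lay at -2.69 there. The difference without these genes was not computed.

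Further region factors outside the 30 were read from a list of 48, of which 43 were tested and 0 passed (32 positive, 11 negative, median log2 fold change 0.14, beside 0.01 for all genes). IRX5 (0.38, SE 0.26) and OTX2 (-0.84, SE 0.73), homeodomain factors, were among those with the smallest p. Of the 43, 9 were higher in every pool of the first set, against 14.2% of all genes, and 0 lower, against 8.93%. These 9 included NKX2-4, the neighbour of NKX2-2 in the RefSeq gene table, at 2.32, 4.02, 0.257 and 0.213 CPM against 0.374, 0.156, 3.21 and 2.31 CPM. They also included 2 genes that are not confined to one nucleus: SOX2, the factor of neural progenitors and glia, at 40.8, 72.0, 14.8 and 23.4 CPM against 21.6, 16.04, 64.1 and 46.0 CPM, and GATA2, a factor of pituitary and midbrain cells, at 109, 134, 26.3 and 40.1 CPM against 22.6, 24.8, 91.3 and 99.7 CPM.

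Products of the neurons that these factors specify were read for the same areas. In the paraventricular and supraoptic nuclei, all 4 tested peptide genes (OXT, AVP, TRH and CRH) were higher in every pool of the first set. Over all genes the share was 14.2%, and since the sets were read from these data, the count describes the split and does not test it. AVP (vasopressin) was at 127, 236, 35.04 and 72.2 CPM against 26.4, 30.8, 148 and 213 CPM, and OXT (oxytocin) at 15.0, 52.7, 2.17 and 6.02 CPM against 0.857, 1.07, 26.4 and 36.6 CPM. SIM1, which acts upstream of both in development, did not have this order and was highest in food-restricted pool 3, where AVP and OXT were at 35.04 and 2.17 CPM. OTP, the homeodomain partner of SIM1 in these neurons, was at 3.51, 6.61, 1.73 and 3.87 CPM against 2.48, 2.29, 6.44 and 4.87 CPM, lowest in food-restricted pool 3. None of these peptides passed between feeding groups, with log2 fold changes of 0.17 (SE 0.70) for AVP, 0.12 (SE 0.22) for TRH and -0.11 (SE 0.40) for CRH.

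In the lateral hypothalamus, HCRT (orexin) was at 19.8, 26.3, 5.83 and 9.56 CPM against 6.59, 7.07, 25.4 and 28.1 CPM, higher throughout the first set. PMCH (melanin-concentrating hormone), from neighbouring cells of the same area, was at 303, 189, 418 and 267 CPM against 303, 351, 204 and 233 CPM, with its 3 lowest values in the first set. LHX9 was highest in food-restricted pool 3, where HCRT was lowest. Of the 4 lateral genes 0 passed, and NPTX2, HCRT and PMCH had log2 fold changes of -0.31 (SE 0.13), -0.13 (SE 0.56) and 0.11 (SE 0.24).

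For GABA neurons, SLC32A1, the vesicular GABA transporter, was at 32.7, 50.9, 22.3 and 26.4 CPM against 23.2, 23.9, 43.4 and 39.7 CPM, higher throughout the first set like DLX5. GAD1 and GAD2, the enzymes that make GABA in the same neurons, ran over all 8 pools from 122 to 153 and from 100.2 to 117 CPM and did not follow it. Log2 fold changes were 0.02 (SE 0.28) for SLC32A1, 0.03 (SE 0.10) for GAD1 and -0.02 (SE 0.10) for GAD2. Genes of 1 area or cell class thus differed in their order over the pools, and whether the share of tissue in the blocks or another property of the pools sets these orders was not tested.

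**Figure D5:**
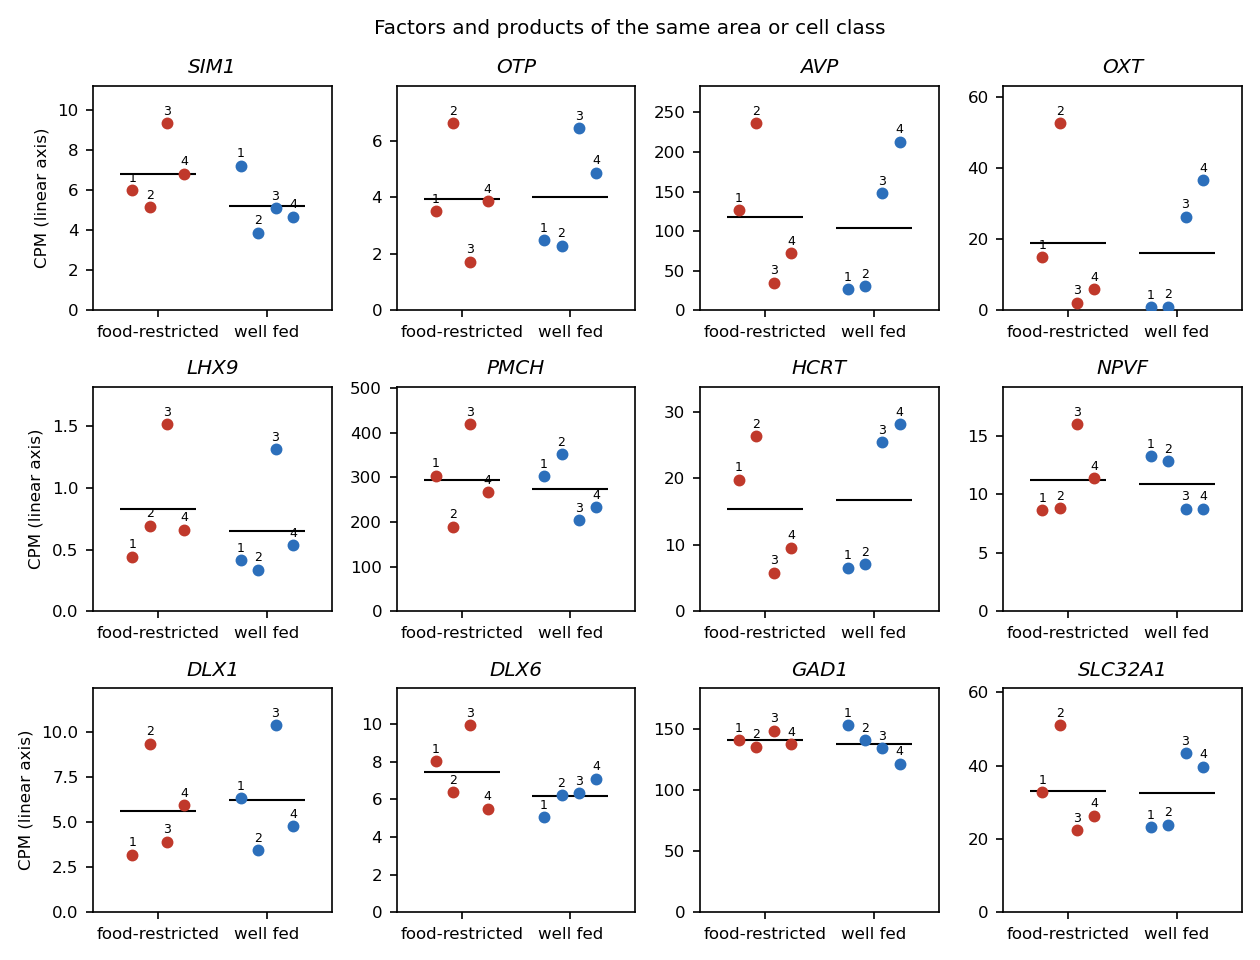
TMM-scaled CPM (linear y axes from 0) of factors and products of the paraventricular (top row), lateral (middle row) and GABA classes (bottom row) in food-restricted (red) and well-fed (blue) pools; numbers are pool numbers and lines are group means. SIM1 peaks in food-restricted pool 3, where AVP is at 35.04 and OXT at 2.17 CPM, and SLC32A1 is high in pools 1 and 2 of one group and 3 and 4 of the other while GAD1 stays between 122 and 153 CPM.

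Among 14 tested products of arcuate and ventromedial neurons, AGRP rose with food restriction (log2 fold change 1.61, SE 0.17, edgeR adjusted p = 0.0296). The other 13 did not pass, among them NPY (1.24, SE 0.35) and CARTPT (-0.77, SE 0.28). The feeding groups did not overlap for NPY, which passed with the sets of pools as a block (log2 fold change 1.34, edgeR adjusted p = 0.00404) and with none of the other alternatives (adjusted p 0.260 to 1.00). The factors of the same nuclei gave 0 of 7 called. Of the 14 products 5 (POMC, TH, GAL, SLC6A3 and ADCYAP1) were higher throughout the first set, where 14.2% of all genes were. None was lower throughout it, against 8.93% of all genes. AGRP was at 137 to 193 CPM in food-restricted and 38.2 to 60.7 CPM in well-fed pools. AGRP no longer passed without any 1 pool, when edgeR gave adjusted p values of 0.0706 to 0.215 and log2 fold changes of 1.49 to 1.73, nor with the replicate number as a block (edgeR adjusted p = 1.00).

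Products of the remaining areas gave no call either. The 5 mammillary products had a median log2 fold change of 0.05, with TAC1 at 0.16 (SE 0.12), NTS at 0.18 (SE 0.20) and CBLN2 at -0.10 (SE 0.13). The 6 thalamic products had a median of 0.04, with SLC17A6, the glutamate transporter of hypothalamus and thalamus, at 0.23 (SE 0.14), NTNG1 at 0.18 (SE 0.13) and CALB2 at -0.04 (SE 0.09). In striatum and basal forebrain the 9 tested genes had a median of -0.01, with PPP1R1B, a dopamine-regulated phosphatase inhibitor of striatal neurons, at -0.24 (SE 0.13). The 4 tested suprachiasmatic products had a median of -0.19 and 0 passed, with VIP at -0.79 (SE 0.89), GRP at -0.36 (SE 0.45) and RGS16 at -0.02 (SE 0.13), the first of them under 1 CPM in every pool. Of the glutamate transporters, SLC17A8 was at -0.71 (SE 0.34) and SLC17A7, the cortical form, at 1.15 to 2.72 CPM over the 8 pools (0.20, SE 0.34). Cell type markers gave no call in any of 10 lists, with median log2 fold changes from -0.10 (meninges and mural cells) to 0.17 (choroid plexus).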

How the data were processed

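The authors deposited a single table of raw read counts, genes by 8 pools. The submitters' processing notes name, without their order, featureCounts 2.0.0, SAMtools 1.9, TopHat2 2.1.1, bcl2fastq 2.20, Bowtie2 2.3.5.1 and FastQC. For the genome build, annotation and strand setting, nothing is given in the sources used here, so overlapping genes are uncertain (8 of the 29 factors found in the RefSeq table of ARS-UI_Ramb_v3.0, used for names and neighbours, overlap another gene there). No transcript lengths were at hand, so levels are compared between pools and not between genes.

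Genes were filtered with filterByExpr (minimum count 10, minimum total 15), scaled by TMM, and compared with the edgeR 4.0.16 quasi-likelihood F test (R 4.3.3) without a covariate, with Benjamini-Hochberg adjustment over 18193 genes at 0.05. The SE was obtained as the absolute log2 fold change over the root of F. Centred values used log2 CPM with a prior count of 2. The procedure was also run on simulated counts drawn independently for each pool. They lacked the split between the sets of pools, so they do not show how the procedure performs with it. No pool repeated another of its feeding group (chi-square between pools of a group 25.0 to 169 per degree of freedom). Pools of different feeding groups were not compared in this way. The factors, their area groups and the lists (10 related, 10 cell type) were chosen with earlier results of these data known. All factors are named, and of each related list the 3 genes with the smallest p, apart from some genes that are not reported here; other related and cell type genes were picked with their values in view. Alternatives comprised 3 other scalings, 2 other filters, DESeq2 1.42.0, limma 3.58.1 voom, 2 blocks and each pool left out.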

Additional observations from a re-analysis of the deposited data

Results flagged for a closer look

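SOX14 in the food-restricted group was marked because 1 pool lay far from the other 3. Food-restricted pool 2 was at 12.7 CPM, and the next pool at 3.04 CPM. PAX6 in the well-fed group was marked for the same reason, with well-fed pool 2 at 12.3 CPM and the next at 8.90 CPM. The distance rule was applied to 58 groups of 4 pools, 2 for each tested factor, and chance marks about 1 group in 20.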

How the results depend on the processing

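With all 17 alternatives 0 factors were called, and the lowest edgeR, DESeq2 or limma adjusted p of any factor was 0.964. The count of called genes over the whole table was 1, 4 with DESeq2, 0 with the replicate number as a block (replicate block), 6 with the 2 sets of pools as a block, and 0 without any 1 pool. The replicate numbers did not pair the pools (correlations of same-numbered deviations between -0.42 and -0.21). The regional difference taken as a median, chosen after seeing the data, moved to 0.12 in well-fed pool 1 and 0.24 in well-fed pool 3, and also changed sign in food-restricted pool 4 (-0.045 to 0.20). Of the factors 9 kept their sign throughout (NKX2-1, TBX3, FEZF1, HMX2, SIM1, DLX6, LHX6, MEIS2 and BARHL1). DLX5 changed sign with limma voom (0.039), the replicate block (0.025) and the set block (0.020). NPY passed with the set block (edgeR adjusted p = 0.00404). Leaving out 1 pool at a time turned the sign of 30 uncalled genes, whose log2 fold changes then ranged as follows: AVP -0.41 to 0.78, CRH -0.31 to 0.19, DLX1 -0.51 to 0.22, DLX2 -0.87 to 0.20, DLX5 -0.21 to 0.20, EMX2 -0.26 to 0.058, FOXB1 -0.54 to 0.67, FOXP2 -0.22 to 0.11, GAD1 -0.020 to 0.090, GAD2 -0.046 to 0.022, HCRT -0.50 to 0.24, HMX3 -0.56 to 0.59, ISL1 -0.19 to 0.081, LHX1 -0.37 to 0.49, LHX9 -0.12 to 0.96, NKX2-2 -0.085 to 1.09, NR5A1 -0.37 to 0.36, ONECUT2 -0.28 to 0.086, PAX6 -0.076 to 0.12, PMCH -0.11 to 0.29, PROX1 -0.058 to 0.30, RGS16 -0.069 to 0.042, SIX3 -0.039 to 0.18, SIX6 -0.22 to 0.35, SLC17A7 -0.0083 to 0.40, SLC32A1 -0.25 to 0.21, SOX14 -1.23 to 0.24, TCF7L2 -0.037 to 0.12, TRH -0.12 to 0.27, ZIC1 -0.37 to 0.14. Counts limit HMX2, HMX3, BARHL1 and LHX8, and the cause of each change was not tested.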
